A study of Mus musculus with 14 samples.

Results

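The Pi16-negative marrow fibroblasts were 529 of the 5381 mouse marrow stromal cells kept from 2 single-cell RNA libraries, 294 of 2190 cells from the WT library and 235 of 3191 cells from the PyMT library. They were chosen on measured values: a cell had to lie in cluster 2 of the authors' clustering of integrated data (resolution 0.1), hold at least 500 genes and under 10% mitochondrial UMIs (unique molecular identifiers, each standing for 1 captured RNA molecule), and hold 0 UMIs of Pi16. Cluster 2 held 559 kept WT and 346 kept PyMT cells. The other 376 cells, with at least 1 Pi16 UMI, are called Pi16-detected here. Because the cluster and Pi16 chose the cells, levels against other clusters and against Pi16-detected cells are descriptions and carry no test.

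Per the labels, the WT library holds sorted marrow stromal cells of the WT mouse genotype and the PyMT library holds those of the PyMT mouse genotype. PyMT is the polyoma virus middle T antigen, an oncogene that gives mice mammary tumours when expressed in mammary epithelium; the stated aim of the series concerns bone marrow during breast cancer that has not spread. The strain, age, number of animals, sort gates and promoter of the transgene were not stated in the labels used here. The series has 14 samples. Besides these 2 libraries, 8 bulk libraries of sorted marrow mesenchymal stem cells (MSC) are used, 4 from tumour-free mice and 4 from mice that carried tumours of Py230, a mouse mammary tumour cell line.

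With 1 library per genotype there is no replicate check: every difference between PyMT and WT below is a difference between 2 libraries, in which genotype, animal, dissociation and capture cannot be told apart. Intervals are 95% exact intervals that cover counting error only. Levels are given as CPM, the UMIs of a gene summed over the Pi16-negative cells and scaled to the same total in each library. The totals were 1691426 UMIs in WT and 1384479 in PyMT, and a 3′ count does not grow with transcript length as read counts do. The median cell held 5447 UMIs in WT and 5099 in PyMT.

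Fibroblasts are the connective tissue cells that build collagen and elastic matrix and that signal to neighbours with chemokines, growth factors and their antagonists. Pi16, a secreted peptidase inhibitor-like protein, marks a fibroblast type described in many mouse tissues together with Dpp4, Cd55 and Sema3c, whereas Col15a1 and Penk mark other fibroblasts. In bone marrow the best described stromal cells are a different type, the LepR+ cells, which make most of the Cxcl12 and stem cell factor (Kitl) that keep blood stem cells in place.

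All 6 marker genes marked the cells in both libraries. Dpt, which encodes the matrix protein dermatopontin (ENSMUSG00000026574, chr1:164796644-164824266 on GRCm38), stood at 1424 CPM in WT and 1234 CPM in PyMT. In cluster 0, the large cluster that carried Lepr and Cxcl12, Dpt stood at 1.89 and 5.25 CPM. Ccl11, the eosinophil-attracting chemokine eotaxin (ENSMUSG00000020676, chr11:82057823-82062955), stood at 301 CPM in WT and 276 CPM in PyMT, against 1.08 and 2.01 CPM in cluster 0. The level of Smoc2, a calcium-binding matrix protein, was 367 and 440 CPM, that of Hmcn2, a hemicentin, 322 and 290 CPM, and that of Gpc3, a glypican, 231 and 298 CPM. Penk, which encodes the precursor of enkephalins, was the least abundant of the 6 at 101 and 147 CPM.

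**Figure D1:**
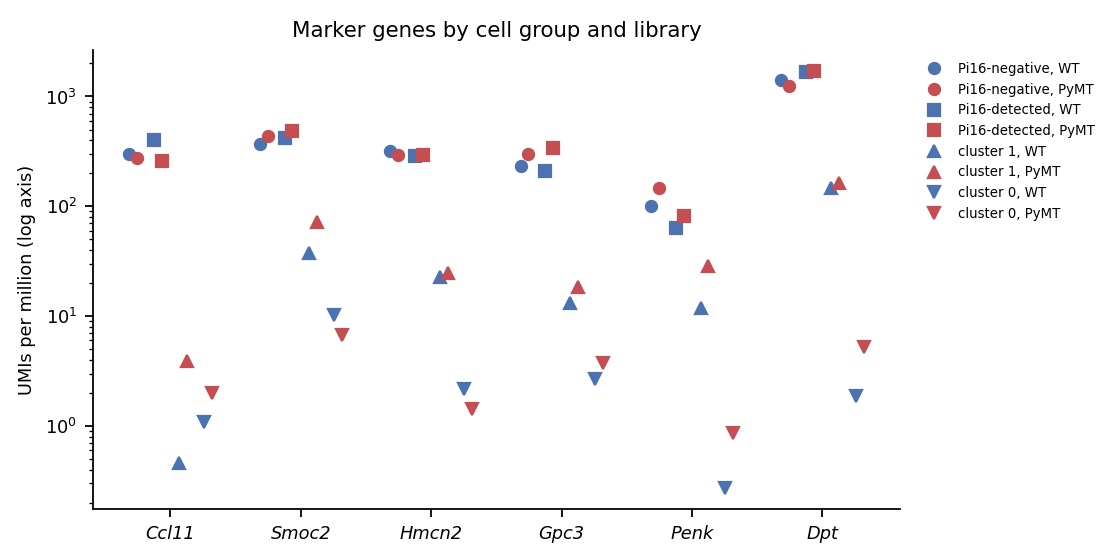
Level of the 6 marker genes (CPM on a log axis) in Pi16-negative cells, Pi16-detected cells and clusters 1 and 0; blue is the WT library and red the PyMT library, and each point is 1 summed group of cells. Pi16-negative and Pi16-detected cells lie close together for every marker, with cluster 1 below them and cluster 0 lowest, except that WT Ccl11 was lower in cluster 1 (0.457 CPM) than in cluster 0.

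The markers were shared unevenly among the cells. At least 3 of the 6 were detected in 65.0% of WT and 58.7% of PyMT cells, all 6 in 3.40% and 4.26%, and none in 0.680% and 3.83%. Dpt was detected in 90.8% and 78.7% of the cells, and Penk in 29.9% and 35.3%. In cluster 1, whose cells carried Prg4 and Comp, the markers sat between the levels above: Dpt was at 147 and 163 CPM and Smoc2 at 38.0 and 72.4 CPM.

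Beyond the markers, 15 genes stood out most against all other stromal clusters in both libraries, and they include 5 of the markers: Ccl11, Gpc3, Hmcn2, Dpt and Penk. The other 10 were Scg3, Dkk2, Efhd1, Ifi205, Ntrk2, 1700019D03Rik, Stmn2, Osr1, Ccn3 and Cd248. The Pi16-detected cells of cluster 2 were left out of this comparison. In them Dpt (1668 and 1707 CPM), Cd248 and Efhd1 were higher than in the Pi16-negative cells, and Penk (63.7 and 81.1 CPM) was lower. The genes are therefore not shown to be particular to the Pi16-negative part of cluster 2. Dkk2, a secreted modulator of Wnt signalling, was at 221 CPM in WT and 215 CPM in PyMT against 3.32 and 5.05 CPM in the other clusters. Ntrk2, the receptor of the neurotrophin BDNF, was at 142 and 123 CPM against 3.46 and 3.86 CPM. Osr1, a transcription factor of connective tissue progenitors, was at 75.7 and 80.2 CPM against 3.32 and 3.12 CPM. Ccn3, a matricellular protein, was at 953 and 1244 CPM against 42.4 and 20.3 CPM. For the 15 genes the log2 difference between the libraries lay between -0.44 (Stmn2) and 0.54 (Penk). The rule that chose them asked for a high level in both libraries, which favours small differences in advance.

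The label was checked against 14 lists of markers of other cells, 3 of them of other stromal types. General fibroblast genes were abundant: Dcn (decorin) stood at 13457 CPM in WT and 16121 CPM in PyMT, Col1a2 at 2456 and 3101 CPM, and the growth factor receptor gene Pdgfra at 778 and 759 CPM. Summed over the list, pan-leukocyte markers came to 3.55 CPM in WT and 1.44 CPM in PyMT, B cell markers to 0.591 and 0.722 CPM, epithelial markers to 0.591 and 0.722 CPM, muscle satellite cell markers to 8.28 and 7.22 CPM, and monocyte and macrophage markers to 5.91 and 15.9 CPM. Neutrophil markers summed to 1.77 and 23.1 CPM, erythroid markers to 21.9 and 7.95 CPM, Schwann cell markers to 20.1 and 19.5 CPM, endothelial markers to 46.7 and 44.1 CPM, cartilage markers to 79.2 and 83.1 CPM, and pericyte and smooth muscle markers to 139 and 139 CPM. Of the 5 pan-leukocyte markers 2 were at 0 in WT and 3 in PyMT, and of the 5 epithelial markers 4 were at 0 in each.

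The sums were higher for the other stromal types. Tendon-like markers came to 2535 CPM in WT and 1842 CPM in PyMT, near the 2745 and 2686 CPM of the 6 marker genes, against 32193 and 31300 CPM in cluster 1 and 112 and 117 CPM in cluster 0. Most of this was Prg4 and Comp, whose levels are given below, and Thbs4 at 378 and 402 CPM, while the tendon factor gene Scx was at 3.55 and 6.501 CPM. LepR+ markers came to 1305 and 1872 CPM against 34730 and 30916 CPM in cluster 0, and osteolineage markers to 164 and 144 CPM, with Sp7, a defining osteoblast factor, at 0 in both.

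The cells were also set beside the LepR+ type. Lepr itself was at 91.6 CPM in WT and 243 CPM in the PyMT cells, but it was at 124 and 267 CPM in cluster 3, whose cells carried the endothelial genes Cdh5 and Stab2 and should lack it. The adipokine gene Adipoq, detected in 2.08% and 1.30% of the Pi16-negative cells at 2000 UMIs per cell, was detected in 87.1% and 63.6% of cluster 0 cells at that depth. In cluster 4, which also carried Cdh5, Lepr was at 129 and 257 CPM. In cluster 5 it was lower, at 54.5 and 105 CPM, so the fibroblast level lay between those of clusters that should lack the gene, and the part of free RNA in it was not tested. Lpl, a lipoprotein lipase gene of the same list, was at 286 and 407 CPM, above clusters 1, 3 and 5 and below clusters 0 and 4. Between the libraries 8 of the 10 LepR+ markers lay above 0 (58.4% of all genes), with a median of 0.55. The interval was above 0 for 6 and below 0 for 1 (14.3% and 6.60% of all genes). The list shares Cxcl12 and Kitl with the niche factors described below.

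How much Pi16 itself separates the cells depends on depth. Among Pi16-detected cells the median was 3 Pi16 UMIs in each library, and 63 of 265 WT and 31 of 111 PyMT cells had exactly 1. The highest count was 79 in WT and 56 in PyMT. After every cell was thinned to 2000 UMIs, which left out 6 WT and 5 PyMT Pi16-negative cells that were shallower, 24.4% of the WT and 27.3% of the PyMT Pi16-detected cells had no Pi16 UMI, and the share of cluster 2 at 0 Pi16 UMIs went from 52.4% to 64.0% in WT and from 67.6% to 76.5% in PyMT. A cell with 0 UMIs is therefore not shown to lack Pi16 RNA, and the median depth was lower in Pi16-negative cells (5447 and 5099 UMIs) than in Pi16-detected cells (5758 and 5927 UMIs).

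Pi16-negative cells nevertheless held less of the other genes of the Pi16+ type. The 13 other genes of that list, Pi16 left out, summed to 6240 CPM in WT and 5965 CPM in PyMT Pi16-negative cells, against 9401 and 9358 CPM in Pi16-detected cells. The median log2 difference over the 13 was -0.72 in WT and -0.66 in PyMT. Cd248, the surface protein endosialin, was at 289 and 250 CPM against 508 and 449 CPM. Efhd1, which encodes a mitochondrial calcium-binding protein, was at 88.1 and 91.7 CPM against 224 and 230 CPM. The 6 marker genes summed to 2745 and 2686 CPM in Pi16-negative cells and to 3043 and 3164 CPM in Pi16-detected cells.

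Genes higher in Pi16-negative than in Pi16-detected cells of both libraries included Mmp3, a matrix protease of inflamed connective tissue, at 69.8 CPM in WT and 49.1 CPM in PyMT against 16.2 and 11.6 CPM. Ntf3, a neurotrophin, was at 29.0 and 20.9 CPM against 7.49 and 5.79 CPM, and Nrep at 88.1 and 96.8 CPM against 22.5 and 26.1 CPM. Egfl6, a secreted EGF-repeat protein, was at 28.4 and 31.1 CPM against 0.624 and 2.90 CPM, but 26.5 and 45.1 CPM in cluster 1. The contractile genes Tagln and Acta2, the lipid-binding gene Fabp4 and the membrane protein gene Lrrc15 were the other 4 of the 8 named. Tagln rested on few cells: 1 WT cell held 98.0% and 1 PyMT cell 77.2% of its UMIs. Acta2 had the same limit, with 79.1% of its UMIs in 1 of 8 WT cells and 61.3% in 1 of 11 PyMT cells.

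The 8 genes named as lower in Pi16-negative cells were Hhip, Dact2, Aldh1a3, Chst1, Abcb1a, Atp6v0e2, Kcnk5 and Cmah. Hhip, which binds and restrains Hedgehog ligands, was at 5.32 CPM in WT and 4.33 CPM in PyMT against 28.1 and 27.5 CPM in Pi16-detected cells. Dact2, an inhibitor of Wnt and TGF-β signalling, was at 7.69 and 8.67 CPM against 40.6 and 52.1 CPM, and Aldh1a3, a retinoic acid-synthesizing enzyme, at 5.91 and 5.78 CPM against 24.96 and 28.95 CPM.

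The Pi16-negative cells were themselves varied. Clustering them on 1500 variable genes gave 6 groups at a resolution of 0.5, 4 at 0.3 and 8 at 0.8, and each of the 6 held cells of both libraries, from 138 cells in the largest to 41 in the smallest. The groups are given by number and leading genes, with no cell type name, and their sizes are not compared between libraries. Values in this paragraph and the next describe genes used for the clustering.

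Sub-cluster 1 was led by Meox1, a homeobox factor, and Mgp, an inhibitor of mineralization, which reached 6003 CPM in WT and 7903 CPM in PyMT against 1185 and 1145 CPM in the other Pi16-negative cells. It held the highest Penk level in both libraries, at 216 and 444 CPM. Sub-cluster 2 was led by Postn (periostin) and the Wnt antagonist gene Sfrp4, at 1913 and 3333 CPM against 537 and 1101 CPM. Ccl11 and the activin subunit gene Inhba led sub-cluster 3, in which Ccl11 reached 857 and 1131 CPM and Smoc2 794 and 1256 CPM. In sub-clusters 2, 5 and 6 Ccl11 was between 7.64 and 27.5 CPM in WT and between 0 and 14.3 CPM in PyMT, so 1 marker did not mark all cells.

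Sub-cluster 4 was led by inflammatory and matrix genes: Ptgs2 (cyclooxygenase 2) at 337 CPM in WT and 799 CPM in PyMT against 51.9 and 144 CPM, and Col6a3 at 2514 and 2704 CPM against 507 and 618 CPM. Sub-cluster 5 was led by Arnt2, Ccdc3, Bmp6 and the chemokine scavenger receptor gene Ackr2. It held the Pi16+ type genes Cd55 (1609 and 2277 CPM) and Sema3c (971 and 1047 CPM) at their highest although Pi16 was at 0 by the rule, and its median depth of 9132 UMIs was the highest of the 6. Sub-cluster 6 was led by Serpina3n and the complement gene C4b, at 1368 and 1774 CPM against 247 and 196 CPM, and its Comp level was also the highest, at 2632 and 1169 CPM.

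**Figure D2:**
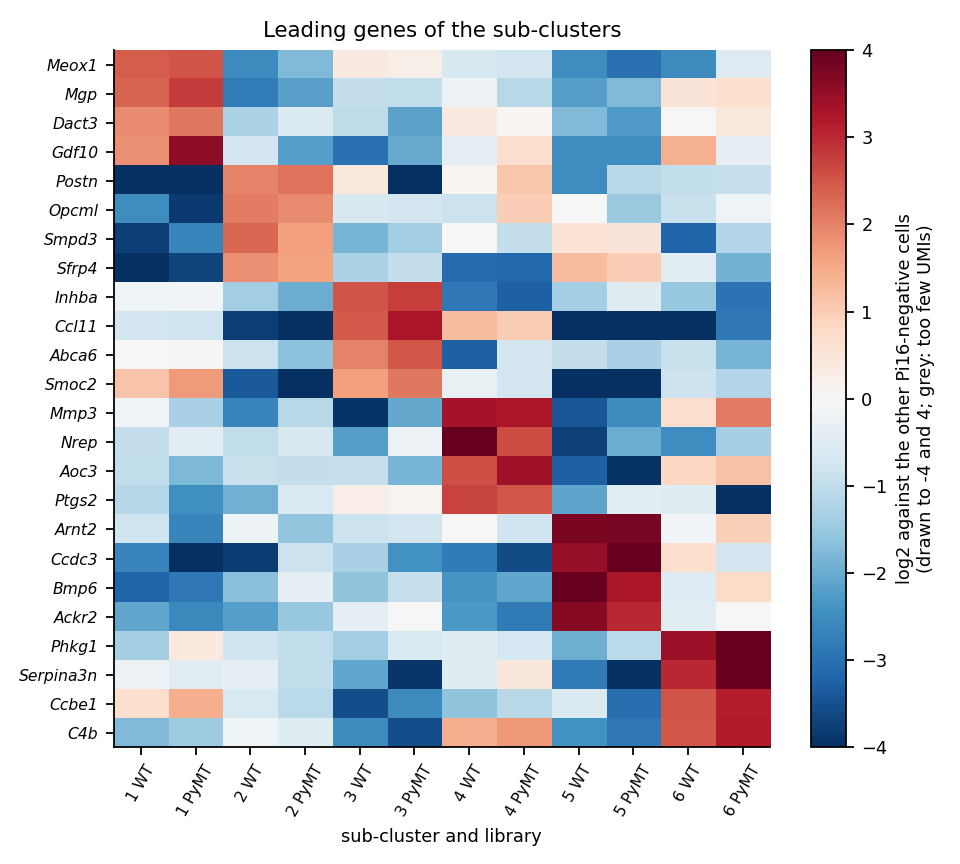
Leading genes (rows) of the 6 sub-clusters of Pi16-negative cells in each library (columns); colour is the log2 ratio of CPM in the sub-cluster over the other Pi16-negative cells of the same library, drawn between -4 and 4. Leading genes were ranked by the smaller of their WT and PyMT ratios, so each set of 4 is high in its own sub-cluster in both libraries by choice. Smoc2 was also high in sub-cluster 1.

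The share of Pi16-negative fibroblasts among kept stromal cells was 13.4% (12.02 to 14.9) in WT and 7.36% (6.48 to 8.33) in PyMT. Cluster 2 as a whole went from 25.5% (23.7 to 27.4) to 10.8% (9.78 to 11.97), so within it the Pi16-negative share was higher in PyMT, 67.9% against 52.6%. Cluster 0 held 977 of the WT and 2242 of the PyMT cells. The shares also depend on the sort and on capture, whose part was not tested.

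In the Pi16-negative cells, 9608 genes had at least 20 UMIs over both libraries. Of these, 326 (3.39%) were at least 2-fold higher in PyMT and 175 (1.82%) at least 2-fold lower. The interval lay above 0 for 1370 genes (14.3%) and below 0 for 634 (6.60%), and the median log2 difference was 0.09. By the rule for named genes, the 14 with the interval bound farthest above 0 were Saa3, Rsad2, Il1rl1, Nr4a3, Ccl2, Mmp13, Csrnp1, Thbs1, Aqp1, Ccl7, Ifit1, Il6, Fgf9 and Egr2. Several of them are chemokine, cytokine and immediate-early genes.

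**Figure D3:**
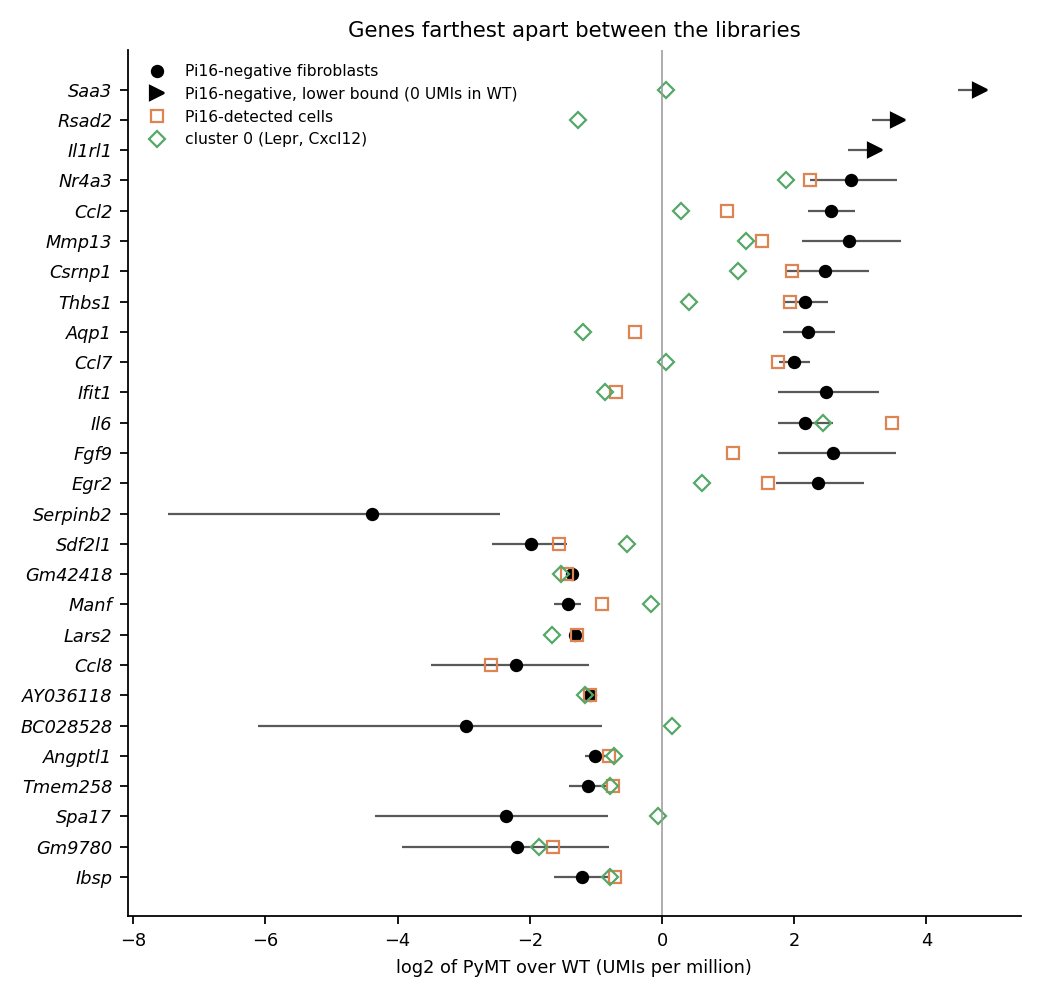
Log2 ratio of PyMT over WT levels (CPM) for the 14 genes named as higher and 13 of the 14 named as lower in PyMT. Black points are Pi16-negative fibroblasts with 95% intervals for counting error, squares Pi16-detected cells and diamonds cluster 0, drawn from 20 UMIs up. Triangles are genes with 0 UMIs in WT, placed with the WT count set to a floor of 3 UMIs. Nr4a3 and Il6 are higher in PyMT in all 3 populations, whereas Aqp1 and Ifit1 are higher in the Pi16-negative cells and lower in cluster 0. Their points for Pi16-detected cells also lie below 0, but the intervals there, not drawn, were not wholly below 0.

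The chemokine genes Ccl2 and Ccl7 and the cytokine gene Il6 were higher in the PyMT cells. Ccl2, the main monocyte-attracting chemokine (ENSMUSG00000035385, chr11:82035571-82037453), was at 47.9 CPM in WT and 282 CPM in PyMT, a log2 difference of 2.56 (2.21 to 2.92). Its UMIs came from 29 WT and 48 PyMT cells, and 1 PyMT cell held 25.4% of them. Without the top cell of each library the log2 difference was 2.33, and it was 1.78 when every cell was thinned to 2000 UMIs. Ccl7, its neighbour in the same chemokine gene cluster (ENSMUSG00000035373, chr11:82045712-82047525), was at 119 CPM in WT and 475 CPM in PyMT, a 3.99-fold difference (log2 interval 1.77 to 2.23). Il6, the cytokine that acts through gp130 and STAT3, was at 37.8 and 169 CPM, a log2 difference of 2.16 (1.75 to 2.58).

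In clusters 3 to 5, Ccl7 was at most 11.03 CPM, Ccl2 at most 33.1 CPM and Il6 at most 39.6 CPM in either library, so that the PyMT levels lay well above those clusters while the WT levels of Ccl2 and Il6 lay near them. At 2000 UMIs per cell, Ccl2 was detected in 6.94% of WT and 15.7% of PyMT cells, Ccl7 in 7.99% and 19.1%, and Il6 in 4.51% and 10.0%; before thinning the shares were 9.86% and 20.4%, 16.3% and 26.8%, and 9.18% and 18.3%. Most cells of either library therefore had no UMI of them at that depth. In cluster 0 the log2 difference of Ccl2 was 0.28, with levels of 306 CPM in WT and 372 CPM in PyMT, and the gap between those populations was not tested.

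Within the cells the 3 genes were not distributed alike. Ccl2 in PyMT was at 936 CPM in sub-cluster 5 and between 0 and 233 CPM in the other 5. Ccl7 in PyMT was highest in sub-cluster 4, at 1652 CPM against 140 CPM in WT, and in sub-cluster 1 it was lower in PyMT (11.2 CPM) than in WT (136 CPM). Il6 was highest in sub-cluster 4 in both libraries, at 188 CPM in WT and 582 CPM in PyMT. These levels rest on few cells and carry no interval. Sub-cluster 1 held 75 WT and 63 PyMT cells, sub-cluster 4 held 32 and 31, and sub-cluster 5 held 33 and 26. A single PyMT cell can weigh heavily, as given for Ccl2 above.

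The chemokine and cytokine list had 19 genes with at least 20 UMIs and a median log2 difference of 0.17. Of them 5 were at least 2-fold higher in PyMT and 2 at least 2-fold lower (3.39% and 1.82% of all genes). Cxcl1, a neutrophil-attracting chemokine, was the most abundant of the 5 and was at 629 and 1355 CPM. Ccl8 and the interferon-induced Cxcl10 were the 2 lower genes: Ccl8 was at 26.6 CPM in WT and 5.78 CPM in PyMT, and Cxcl10 at 41.4 and 15.2 CPM, with 45.7% of its WT UMIs in 1 cell. Ccl11 differed by -0.13 (-0.32 to 0.07).

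Of 15 NF-κB genes measured, 7 were at least 2-fold higher (3.39% of all genes) and none at least 2-fold lower (1.82% of all genes). The median was 0.90. Nfkbia, the inhibitor that NF-κB itself induces, was at 390 CPM in WT and 804 CPM in PyMT, and Nfkbiz at 163 and 303 CPM. The list shares Ccl2, Ccl7 and Cxcl1 with the chemokine list. Its median was 1.11 in Pi16-detected cells, 0.57 in cluster 0 and 0.52 in cluster 1. Of 16 STAT3 and acute-phase genes the interval was above 0 for 9 and below 0 for none (14.3% and 6.60% of all genes), with a median of 0.50. Socs3, the feedback inhibitor of gp130 signalling, was at 496 and 854 CPM, and Cebpb at 154 and 345 CPM. The median of this list was 0.73 in Pi16-detected cells, 0.60 in cluster 0 and 0.43 in cluster 1. Saa3, an acute-phase protein gene, was at 0 in WT and its 69 PyMT UMIs all came from 1 cell.

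Immediate-early genes were higher almost throughout. Cells switch such genes on within minutes of a stimulus and also during tissue dissociation. Of 30 measured, the interval was above 0 for 28 and below 0 for none (14.3% and 6.60% of all genes), and the median was 0.89. Fos stood at 4628 CPM in WT and 9043 CPM in PyMT and Egr1 at 1788 and 4498 CPM, while Nr4a1, an orphan nuclear receptor gene, stood at 153 and 503 CPM. Nr4a3, of the same receptor family (ENSMUSG00000028341, chr4:48045153-48086447), was at 14.2 and 103 CPM, a log2 difference of 2.86 (2.23 to 3.55). At 2000 UMIs per cell Egr1 was detected in 72.2% of WT and 90.4% of PyMT cells and Nr4a3 in 1.74% and 9.57%, against 84.7% and 94.5% and 6.46% and 23.8% before thinning.

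The same genes were higher in the PyMT library in the other populations, with medians of 0.97 in Pi16-detected cells, 0.77 in cluster 0 and 1.002 in cluster 1. Their summed level was higher in PyMT in each of the 6 sub-clusters, from 24724 to 41131 CPM in sub-cluster 1 and from 37845 to 54944 CPM in sub-cluster 4. Each genotype had 1 library. The part of dissociation and capture in these differences, and in those of the NF-κB and chemokine genes, was not tested.

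**Figure D4:**
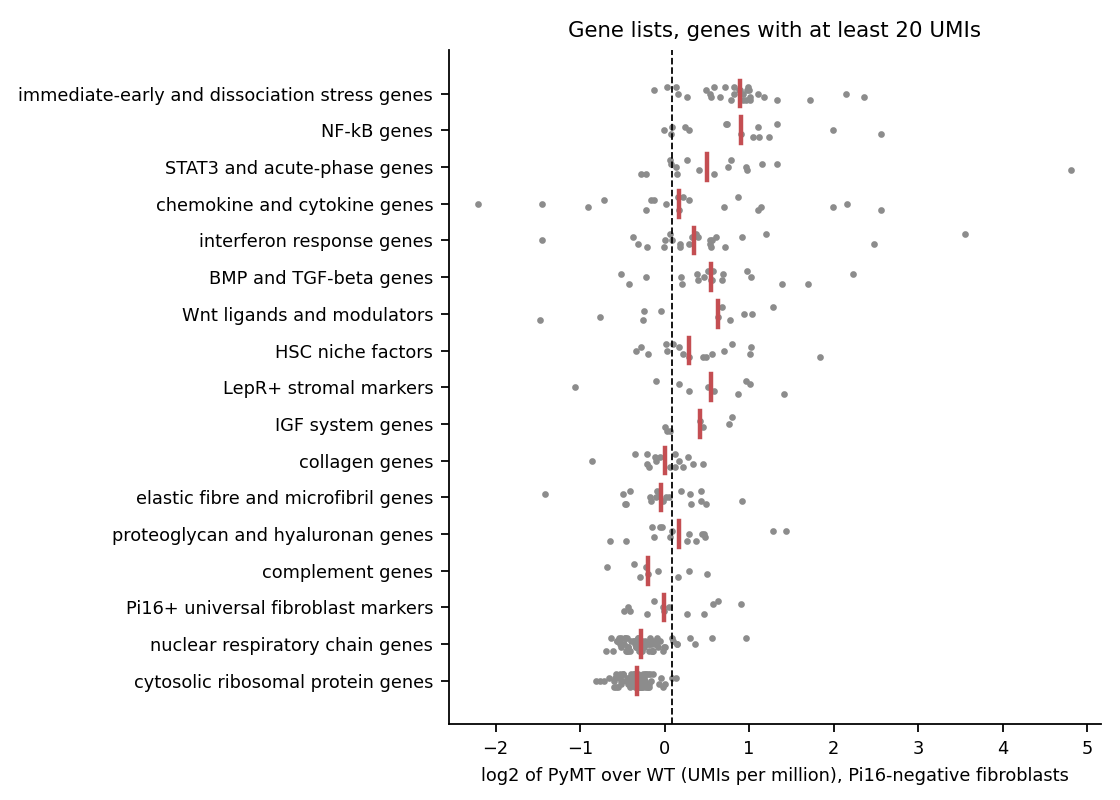
Log2 ratio of PyMT over WT levels in Pi16-negative fibroblasts for the genes of 17 lists (grey points, genes with at least 20 UMIs), with each list's median (red bar) and the median of all such genes (dashed line, 0.09). Immediate-early and NF-κB genes lie mostly to the right with medians of 0.89 and 0.90, and ribosomal protein genes to the left with a median of -0.33.

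The promoters of 3 of the genes named as higher in PyMT are shown because they hold matches to the sites of factors that those groups contain: AP-1, the Fos and Jun dimer, CREB-type factors, and NF-κB. Each is the 250 bases before the RefSeq gene start on GRCm38.p6, plus strand, and capitals mark motif matches on either strand. Il6 is chr5:30012864-30013113, Mmp13 is chr9:7272264-7272513 and Nr4a3 is chr4:48045055-48045304.
Il6: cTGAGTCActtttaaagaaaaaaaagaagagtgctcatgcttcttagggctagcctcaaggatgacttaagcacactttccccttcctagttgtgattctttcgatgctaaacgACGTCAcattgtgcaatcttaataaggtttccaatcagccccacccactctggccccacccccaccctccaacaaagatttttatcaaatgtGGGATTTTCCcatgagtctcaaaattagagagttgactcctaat
Mmp13: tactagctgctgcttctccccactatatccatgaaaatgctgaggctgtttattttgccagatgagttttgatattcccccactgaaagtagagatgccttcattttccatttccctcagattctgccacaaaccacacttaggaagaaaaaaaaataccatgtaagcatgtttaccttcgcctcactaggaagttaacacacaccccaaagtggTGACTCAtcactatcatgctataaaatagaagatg
Nr4a3: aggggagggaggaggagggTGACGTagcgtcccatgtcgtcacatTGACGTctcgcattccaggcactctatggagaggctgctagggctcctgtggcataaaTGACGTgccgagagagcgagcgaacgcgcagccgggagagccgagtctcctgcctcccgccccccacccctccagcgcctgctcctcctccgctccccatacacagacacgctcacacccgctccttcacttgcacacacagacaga
In Il6 the capitals mark an AP-1 match (TGANTCA), a CREB-type match (TGACGT, here on the minus strand) and an NF-κB match; in Mmp13 they mark 1 AP-1 match and in Nr4a3 3 TGACGT matches. TGACGT lies within the full CREB site TGACGTCA, which was the motif first searched, and was added after the sequences had been seen. Of the 11 matched promoters of genes higher in PyMT, 3 held AP-1, 3 held TGACGT, 1 held NF-κB and none held the full CREB site or the CArG box of serum response factor. Of 11 matched promoters of genes lower in PyMT, 1, 2, 1 and none did. Among all 32851 promoters of this length 6.75% held AP-1, 6.47% TGACGT, 3.90% NF-κB, 1.55% the full CREB site and 1.47% a CArG box. A match is a stretch of letters and not a measured binding site.

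Growth factor and antagonist genes of the BMP and TGF-β pathways were mostly higher in PyMT. Of 19 such genes the interval was above 0 for 14 and below 0 for none (14.3% and 6.60% of all genes). The median was 0.55, against 0.34 in Pi16-detected cells, 0.37 in cluster 0 and 0.38 in cluster 1. Bmp2 was at 66.8 CPM in WT and 217 CPM in PyMT (log2 1.70, 1.38 to 2.02), with 26.7% of its PyMT UMIs in 1 cell. Bmp4 was at 89.9 and 132 CPM (log2 0.56), and the BMP target gene Id3 at 835 and 1103 CPM. The BMP antagonist genes Chrdl1 (chordin-like) and Grem1 (gremlin) were at 49.1 and 129 CPM and at 7.69 and 36.1 CPM. Grem1 stood at 35.6 and 57.4 CPM in cluster 3 and at 3.09 CPM in PyMT cluster 5. Its level here therefore cannot be told from that of cells that should lack it.

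Of 11 Wnt ligands and modulators, 2 were at least 2-fold higher and 1 at least 2-fold lower (3.39% and 1.82% of all genes), with a median of 0.64. Sfrp4 was at 832 CPM in WT and 1711 CPM in PyMT (log2 1.04, 0.94 to 1.14), and in cluster 3 at 35.6 and 37.5 CPM. Rspo2, which amplifies Wnt signals, was at 9.46 and 23.1 CPM. Sfrp2, from the same antagonist family as Sfrp4, was at 107 and 62.8 CPM. Of 7 genes of the insulin-like growth factor system the interval was above 0 for 4 and below 0 for none (14.3% and 6.60% of all genes). Igfbp5 was at 1641 and 2844 CPM while Igf1 was at 498 and 511 CPM.

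Among 17 factors known to support blood stem cells the median was 0.30. The interval was above 0 for 7 and below 0 for 1 (14.3% and 6.60% of all genes). Ptn (pleiotrophin, ENSMUSG00000029838, chr6:36714929-36810220 on the minus strand), a secreted growth factor, was at 37.2 CPM in WT and 133 CPM in PyMT, a log2 difference of 1.84 (1.42 to 2.27). It was detected in 7.48% and 23.8% of the cells and was at most 37.5 CPM in clusters 3 to 5. Cxcl12 was at 659 and 809 CPM (log2 0.30, 0.17 to 0.42), against 20937 and 18614 CPM in cluster 0. Cluster 5, led by the osteoblast gene Bglap, held 267 and 463 CPM of Cxcl12, and cluster 1 held 437 and 895 CPM, so a part of the fibroblast level may be free RNA, which was not tested. Kitl was at 65.6 and 132 CPM, against 46.5 and 71.1 CPM in cluster 5, 35.6 and 205 CPM in cluster 3 and 1917 and 2291 CPM in cluster 0, so that its PyMT level lay below that of cluster 3. Vcam1 was at 57.9 and 81.6 CPM, against 59.8 and 164 CPM in cluster 5, and the part of free RNA in its fibroblast level was not tested. Gas6, a ligand of TAM receptors, was at 461 and 381 CPM and was the 1 factor with an interval below 0. Il7 differed by 0.17 (-1.09 to 1.42) and Csf1 by 0.02 (-0.22 to 0.25).

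**Figure D5:**
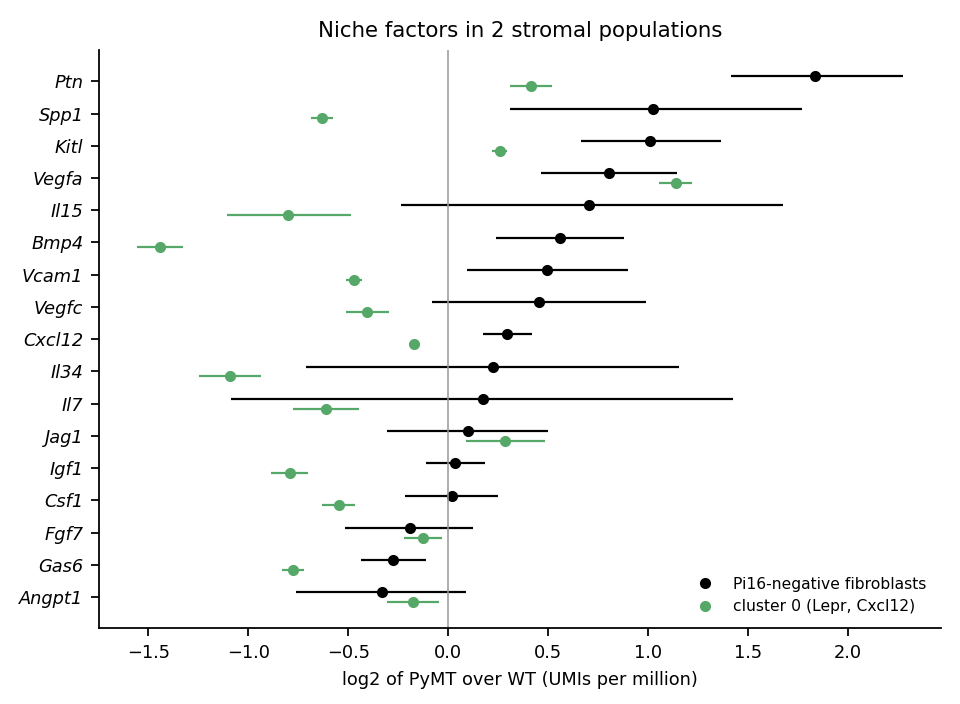
Log2 ratio of PyMT over WT levels (CPM) of 17 niche factors in Pi16-negative fibroblasts (black) and in cluster 0 (green), with 95% intervals for counting error. Ptn and Kitl are to the right in both populations, and Bmp4 is at 0.56 in the fibroblasts and at -1.44 in cluster 0.

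Other genes named as higher in PyMT came from a range of functions. Thbs1 (thrombospondin 1), which activates latent TGF-β, was at 55.6 CPM in WT and 248 CPM in PyMT, a log2 difference of 2.16 (1.83 to 2.51). Aqp1, a water channel gene abundant in cluster 4, where it stood at 4406 and 2980 CPM, was at 41.4 and 191 CPM in the Pi16-negative cells, mainly in sub-clusters 2 (90.8 and 296 CPM) and 5 (61.1 and 409 CPM). Fgf9 was at 8.28 and 49.8 CPM, and in cluster 1 it was at 107 and 187 CPM. Mmp13, a collagenase gene, was at 11.2 and 79.5 CPM against 170 CPM in PyMT cluster 3 and 188 CPM in PyMT cluster 4. Its PyMT level lay below both, and the part of free RNA in it was not tested. Il1rl1, the receptor of IL-33, was at 0 in WT and had 23 UMIs in 4 PyMT cells.

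Of 24 interferon response genes measured, 19 (79.2%) lay above 0, against 58.4% of all genes, with a median of 0.35. The interval was above 0 for 6 and below 0 for 3 (14.3% and 6.60% of all genes). Of these genes 3 were at least 2-fold higher and 1 at least 2-fold lower (3.39% and 1.82% of all genes). Ifit1 was at 11.2 CPM in WT and 62.8 CPM in PyMT (log2 2.48, 1.76 to 3.28), and over every kept cluster 2 cell the log2 difference was 0.85. Rsad2 (viperin) had 0 UMIs in WT and 29 UMIs in 8 PyMT cells, 11.8-fold higher with the WT count set to the floor of 3 UMIs. Ifitm3, the most abundant of the list, was at 1444 and 1117 CPM.

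Collagen and elastic fibre genes differed in both directions. Of 16 collagen genes, all measured, the interval was above 0 for 5 and below 0 for 6 (14.3% and 6.60% of all genes), with a median of 0.00. Col3a1 was at 4510 and 5086 CPM, and Col5a3 was at 402 and 221 CPM. Of 20 elastic fibre and microfibril genes the interval was above 0 for 7 and below 0 for 5. The hyaluronan synthase gene Has1 was at 232 and 629 CPM (log2 1.44, 1.26 to 1.61), whereas Has2 was at 86.9 and 78.7 CPM. Lubricin, encoded by Prg4, was at 1407 and 901 CPM, and the tendon and cartilage gene Comp at 709 and 469 CPM. Of 9 complement genes the interval was above 0 for 2 and below 0 for 3 (14.3% and 6.60% of all genes). The 6 marker genes and 13 Pi16+ type genes had medians of 0.07 and -0.01. Among the latter Ackr3, a scavenger receptor of CXCL12, was at 330 and 620 CPM and Cd34 at 1016 and 752 CPM.

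Most transcription factor genes of fibroblasts lay above 0, 15 of 17 (88.2%) against 58.4% of all genes. Of the 17 measured, the interval was above 0 for 7 and below 0 for 1 (14.3% and 6.60% of all genes), with a median of 0.29. Prrx1, a homeobox factor of limb and connective tissue mesenchyme, was at 653 CPM in WT and 703 CPM in PyMT, Ebf1 at 1071 and 1205 CPM, and Meox2, the 1 with an interval below 0, at 294 and 229 CPM. Klf4, which is also an immediate-early gene, was at 1480 and 2758 CPM and Foxd1 at 33.7 and 69.3 CPM (log2 interval 0.55 to 1.54). Prrx1 (23.7 and 39.7 CPM) and Foxd1 (0 and 2.21 CPM) were far lower in cluster 3, whereas Klf4 stood at 1903 and 2414 CPM there.

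Of 19 matrix protease and inhibitor genes the interval was above 0 for 7 and below 0 for 5 (14.3% and 6.60% of all genes). Adamts1, a secreted protease gene, was at 196 CPM in WT and 387 CPM in PyMT but at 936 and 2279 CPM in cluster 3. Pcolce, an enhancer of procollagen processing, was lower in the PyMT cells, at 773 and 502 CPM. Among 8 glucocorticoid-responsive genes the interval was above 0 for 4 and below 0 for 1, and the metal-binding genes Mt1 and Mt2 were at 689 and 1277 CPM and at 384 and 852 CPM. Of 14 myofibroblast-associated genes the interval was above 0 for 6 and below 0 for 1. It was above 0 for 3 and below 0 for 2 of 18 hypoxia and glycolysis genes. Of 9 MHC class I genes it was above 0 for 1 and below 0 for none. Over all genes it was above 0 for 14.3% and below 0 for 6.60%.

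Of the 14 genes named as lower in PyMT, 13 are given here: Serpinb2, Sdf2l1, Gm42418, Manf, Lars2, Ccl8, AY036118, BC028528, Angptl1, Tmem258, Spa17, Gm9780 and Ibsp. Manf and Sdf2l1, proteins of the endoplasmic reticulum that cells make under folding stress, were at 482 and 179 CPM and at 94.6 and 23.8 CPM. Angptl1, a secreted angiopoietin-like protein, was at 634 CPM in WT and 315 CPM in PyMT (log2 -1.01, -1.17 to -0.85). Gm42418, annotated as a long non-coding RNA on chr17:39846958-39848788, was at 55752 and 21794 CPM, and AY036118 lies within it on the opposite strand, so their reads may not be separable. Gm42418, AY036118 and Lars2 were also at least 2-fold lower in cluster 0. All 51 WT UMIs of Serpinb2 came from 1 cell.

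The bone matrix gene Ibsp, at 110 and 47.7 CPM, lay below clusters 3 and 4 (137 to 373 CPM). The part of free RNA in its level was not tested. The log2 difference of Ibsp was -1.21, and 0.34 without the 7 WT cells marked as doublets. Ribosomal protein genes were lower in PyMT, with intervals below 0 for 70 of 76 and a median of -0.33. Nuclear genes of the respiratory chain had intervals below 0 for 31 of 70 and above 0 for 1. Over all genes 6.60% had intervals below 0 and 14.3% above 0. The 13 mitochondrially encoded genes had intervals above 0 for 11, and the median mitochondrial share was 3.55% in WT and 4.04% in PyMT. Ribosomal and respiratory chain medians were also below 0 in cluster 0, at -0.25 and -0.35.

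The bulk MSC libraries are the replicated data of the series on marrow stroma, in another tumour model and in a sorted population in which the fibroblast genes were low: Dpt was at 6.28 CPM ± 1.20 (SD, n = 4) and Hmcn2 at 58.4 CPM ± 22.8 in tumour-free libraries, while Cxcl12 was at 20064 CPM ± 1499. In bulk, fewer cells of a type and less RNA per cell cannot be told apart. edgeR's quasi-likelihood test with Benjamini-Hochberg adjustment called 324 of 16317 genes higher (1.99%) and 447 lower (2.74%) in Py230. Of the 14 genes named as higher in PyMT fibroblasts 13 were tested, and 1 was higher and 1 lower. Mmp13 was at 1079, 1147, 974 and 895 CPM in the tumour-free and at 1644, 1774, 1381 and 1698 CPM in the Py230 libraries. The means were 1024 CPM ± 111 and 1624 CPM ± 171, with a log2 difference of 0.67 ± 0.12 (SE) and an edgeR adjusted p of 0.00446. Ccl7 was at 48.8, 32.1, 40.0 and 46.9 CPM in the tumour-free and at 15.3, 21.6, 20.5 and 34.4 CPM in the Py230 libraries. Its means were 42.0 CPM ± 7.58 and 22.96 CPM ± 8.13, with a log2 difference of -0.88 ± 0.21 and an edgeR adjusted p of 0.0329, and the groups overlapped. The bulk Ccl7 call was lost without tumour-free 1, 3 or 4 and without Py230 2 or 3, taken 1 at a time (edgeR adjusted p up to 0.107).

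Ccl2 did not pass in the bulk test, at 150 CPM ± 40.2 and 122 CPM ± 32.5 (edgeR adjusted p = 0.631), nor did Il6 (edgeR adjusted p = 0.348) or Nr4a3 (edgeR adjusted p = 0.498). None of the 10 tested genes named as lower in PyMT and none of the 13 tested identity genes was called. Of 30 immediate-early genes 2 were higher and 3 lower, and of 16 NF-κB genes none was higher and 1 lower (1.99% and 2.74% of all genes tested in bulk). BMP and TGF-β genes gave 8 lower of 20 and none higher. Among the 8 were Chrdl1 at 957 CPM ± 192 and 264 CPM ± 66.8 and Grem1 at 1211 CPM ± 268 and 553 CPM ± 191. Of 18 niche factors 12 were lower and 1 higher, against 2.74% and 1.99% of all genes tested in bulk. Bulk and single-cell directions come from different cells, mice and tumours and were not tested against each other.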

How the data were processed

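Single-cell libraries were processed with Cell Ranger 6.0.0 and bulk libraries with Trim Galore and STAR 2.5.3a on mouse build mm10, as read from the tool names in the submitters' processing notes; the labels disagree on the version of the droplet 3′ chemistry. For bulk, the tool that counted reads, its strand setting and its gene annotation are not given here. The deposited single-cell tables hold raw UMI counts per gene symbol and cell, per the file headers, and their totals equal those in the deposited metadata for all 2508 WT and 3563 PyMT cells. The deposited metadata give the mitochondrial share as a fraction and the cluster number. Raw read counts make up the bulk table as deposited, per the file headers, between 4301375 and 9811251 per library.

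UMIs were summed over cells and scaled to CPM, and log2 ratios carry exact conditional binomial intervals; shares carry Clopper-Pearson intervals (confidence 95%). No prior count was added; a group at 0 was set to a floor of 3 UMIs. Genes needed 20 UMIs over both libraries. The libraries share 2 cell barcodes. Scrublet marked 35 WT cells (7 of them Pi16-negative) and 4 PyMT cells, 0.125% of the PyMT cells, so it did not work there; no cell was removed. Sub-clusters came from scanpy 1.11.5 with leidenalg 0.10.2 (15 components, 15 neighbours). Bulk libraries were fitted with edgeR 4.0.16 (TMM, filterByExpr, robust quasi-likelihood, threshold 0.05). The labels do not say that they come from separate animals, so p-values cover the spread among these libraries, part of which may be technical. Both calculations were tested on simulated data. Ensembl IDs and gene positions are from GENCODE vM21 by symbol, promoters from RefSeq (22 of 28 named genes matched).

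The members and gene lists were chosen with earlier results of these data known. Named genes are the 6 markers; the 15 genes farthest above the other clusters in both libraries (at least 50 CPM); the 8 most different in each direction from Pi16-detected cells (20 UMIs per library); the 14 in each direction between libraries with the interval bound farthest from 0; and, of each list, the 2 farthest members on each side and those with a niche role. Has2, Pdgfra, Nfkbiz, Socs3, Id3, Igf1, Ifitm3, Col3a1, Fos, Prrx1, Ebf1, Adamts1, Lpl, Thbs4, Scx, Sp7 and other list members named for their abundance were chosen after their values were seen. Items withheld from this account are not reported here.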

Additional observations from a re-analysis of the deposited data

Results flagged for a closer look

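In the bulk libraries the Smoc2 level of Py230 replicate 4, 9.97 CPM, lay far from the nearest of the other 3 (19.6 CPM) for the spread of its group. In all 18 groups of bulk libraries were looked at in this way, and chance marks about 1 in 20.

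Of 52 genes compared between populations, 10 were marked: for them the difference between the PyMT and WT libraries had an interval above 0 in the Pi16-negative fibroblasts and below 0 in another cluster, or the reverse. The 52 were the genes named as higher or lower in PyMT, the niche factors, and Lepr, Chrdl1, Grem1, Bmp2, Adipoq and Sfrp4. For the named genes the fibroblast interval lay off 0 by the rule that chose them. The share of all genes that would be marked was not computed, so the count of 10 is a description only. The difference between the populations was not tested, since each has 1 library per genotype. In cluster 0, Rsad2 was at a log2 difference of -1.26, against 3.56 in the fibroblasts with WT at the floor. Ifit1 was at -0.86 there against 2.48, and Aqp1 at -1.19 against 2.21. The growth factor and Wnt genes gave -1.44 for Bmp4 against 0.56, -0.89 for Chrdl1 against 1.39, and -0.40 for Sfrp4 against 1.04. Cxcl12 was at -0.17 in cluster 0 against 0.30, Vcam1 at -0.47 against 0.49, and Spp1 at -0.63 against 1.03. The fibroblast levels of Vcam1 lay below those of clusters 3 to 5, and the part of free RNA in them was not tested. In cluster 1, Chrdl1 was at -0.52 against 1.39, and Gas6 at 0.32 against -0.27.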

How the results depend on the processing

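The share of Pi16-negative fibroblasts among kept stromal cells was 6.06 points lower in PyMT (a difference of -6.06), -14.7 points with every kept cluster 2 cell and -9.54 points with Pi16 read after thinning to 2000 UMIs; 3 other cell filters gave -7.39 to -5.25. The counts of genes at least 2-fold higher and lower, 326 and 175, became 142 and 37 with a minimum of 50 UMIs and 1059 and 715 with no minimum beyond 1 UMI in each library, and lay between 263 and 379 and between 162 and 226 under the others. With TMM factors 263 were higher and 214 lower, so the higher share of these genes went from 65.1% to 55.1%; leaving out each gene's top cell, an alternative chosen after seeing the data, gave 365 and 226. Of the named genes, Ibsp reversed to 0.34 without Scrublet doublets. Of 438 values of named genes under alternatives 400 stayed within their counting interval. List medians were set against the median lower and upper bounds of their single genes, and 356 of 364 stayed between them. Those bounds are wide and do not measure the error of a list median.

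In bulk, 324 genes higher and 447 lower became 176 and 237 with the replicate block. Replicate numbers do not pair the libraries: correlations of same-numbered deviations were -0.39, -0.13, -0.20 and 0.02, and 1 of 4 numbers matched its own best. Leaving out 1 library gave 134 to 304 higher and 230 to 426 lower genes, a change of over 1.5 times without tumour-free 1 (147 higher, 230 lower), tumour-free 2 (134 and 260), tumour-free 3 (188 higher) and Py230 2 (181 and 276). No filter gave 298 and 578, DESeq2's size factors 301 and 457, and DESeq2's own test 480 and 613. The bulk Ccl7 difference lost its call in the block fit (edgeR adjusted p = 0.0517), without tumour-free 1, 3 or 4 and without Py230 2 or 3 (log2 -0.94 to -0.83 there); Mmp13 kept its call under all 12 alternatives. The bulk Il6 difference passed in edgeR only with no filter (adjusted p = 0.0161). Depth limits genes under about 20 UMIs, and the causes of these changes were not tested except where fewer genes or libraries entered.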
